A study of Mus musculus with 6 samples.

Results

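The 4 arrays of HL-1 cells given hyaluronan were pooled, whatever the chain length, and set against the 2 arrays of untreated cells. All 6 samples of the series entered this comparison, so 6 of 6 are described here. HL-1 is a cardiomyocyte line from mouse atrium, and the line was the only cell source of these arrays. The hyaluronan was either o-HA, the 6-mer, or n-HA, native-size chains of 1000 kDa, with 2 arrays for each. All 3 groups were on the same beadchip, and the methods give a different dose for each chain length. Chain length and dose therefore cannot be told apart, and pooling asks only what the presence of any hyaluronan went with. Both chain lengths were compared with the same 2 untreated arrays. The labels do not say whether replicates were separate cultures, so every p-value measures the spread between these samples, which may be technical.

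Hyaluronan is an unbranched sugar polymer of the extracellular matrix, made at the plasma membrane by hyaluronan synthases. Cells bind it through surface receptors such as Cd44 and Hmmr, take it up and break it down with hyaluronidases and lysosomal enzymes. In the heart it surrounds cardiomyocytes and fibroblasts, and fragments of different length are known to act on cells in different ways.

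The arrays of the series differed in brightness. Mean bead intensity lay between 121.6 and 140.9 on the untreated and o-HA arrays, and was 110.1 and 93.3 on the n-HA arrays. Probes detected above background numbered 5443 to 5763 on the former and 4767 and 4546 on the latter. n-HA replicate 1 stood apart, correlating at 0.817 to 0.873 with the other 5 arrays, which correlated at 0.962 to 0.989 with each other. The main results are therefore given with and without it. Each group held neighbouring places on the chip, so place and group cannot be told apart. Of 12 cardiomyocyte markers, 11 had a probe and 9 were detected on some array. Ryr2 and Gata4 were not detected on any. The summed level of the list, on the log2 scale, was 13.05 to 13.25 in untreated and 12.93 to 14.03 in treated cells. Of 8 fibroblast markers 1 was detected, Col3a1 on 1 array. Of 5 endothelial markers Tek was detected on 5 arrays and Kdr and Vwf on 1 each, while Pecam1 was not. Of 4 leukocyte markers with a probe Cd3e was detected on 6 arrays and Cd14 on 1, while Ptprc was not. Of 4 smooth muscle markers Acta2 and Tagln were detected on all 6 arrays, while Myh11 and Cnn1 were not detected on any. Of 4 pigment cell markers Mlana was detected on all 6 arrays and Pmel on 3, while Dct and Tyrp1 were not. In bulk RNA, fewer cells of a type and less RNA per cell cannot be told apart.

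A gene was described as higher when all 4 treated values lay above both untreated values, and as lower when all 4 lay below both. Values are background-corrected, quantile-normalized log2 intensities, so a difference of 1 is a doubling. A probe was tested if its detection p-value was under 0.05 on at least 2 of the 6 arrays, which left 6194 of 25697 probes. Of these, 671 (10.8%) were higher and 819 (13.2%) were lower. With 1 probe per gene, 583 (11.9%) of 4885 genes were higher and 642 (13.1%) were lower. These shares are the background for every gene group below, and the median difference over all genes was 0.01. The distance between the nearest treated and the nearest untreated value, called the gap here, was mostly small. Its median was 0.13 among the higher probes and 0.14 among the lower ones, and it reached 0.5 in 23 higher and 41 lower probes. The gap exceeded 2 standard errors of the beads in 115 (17.1%) of the higher and 114 (13.9%) of the lower probes.

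No probe passed the pooled test. The limma fit of treated against untreated arrays called 0 of 6194 probes (0%) at an adjusted p-value of 0.05, and the lowest adjusted p-value was 0.795. Without adjustment 103 higher and 129 lower probes had a p-value under 0.05. For a single value, an exact permutation test of 4 arrays against 2 has 15 arrangements. Its p cannot fall below 0.0667 one-sided, or below 0.133 two-sided when ranks are used. The values that follow are therefore a description of which genes separated the groups, by how much, and on which arrays.

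n-HA replicate 1 lay farthest from the untreated cells in 525 (78.2%) of the higher and 625 (76.3%) of the lower probes. The median difference from untreated was 0.35 for o-HA and 0.83 for n-HA among the higher probes, and -0.34 and -0.89 among the lower ones. Without n-HA replicate 1, the remaining 3 treated values lay above both untreated values in 804 (13.6%) of 5893 probes and below both in 978 (16.6%). With 1 value fewer to separate, these shares are larger by construction. The pooled test still called 0 of them (0%), with a lowest adjusted p-value of 0.188 in limma and 652 probes under 0.05 without adjustment. A model with a mean for each of the 3 groups, chosen after seeing the data and fitted without that array, called 183 higher and 303 lower probes. In that fit the spread came from the untreated and o-HA pairs alone, and the lone n-HA array was assumed to vary like them.

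The higher genes, and to a smaller extent the lower ones, depended on how the arrays were scaled. Before arrays were brought to a common distribution, the median probe was 0.19 lower in treated than in untreated cells on the log2 scale. On that scale 69 probes were higher and 893 lower, so that 7.17% of the separated probes were higher, against 45.0% after normalization. On the deposited intensity scale 78 were higher and 833 lower, or 8.56%. Of the 671 higher probes 63 were also higher on the deposited scale, and of the 819 lower probes 526 were also lower. Of the 12 higher genes with the widest gaps, Csnk1g2 alone stayed above untreated without normalization, while all 12 of the lower ones stayed below. With the median probe lower in treated cells, staying below was the easier outcome on these scales. "Higher" and "lower" in the text below thus mean relative to the rest of the array.

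**Figure D1:**
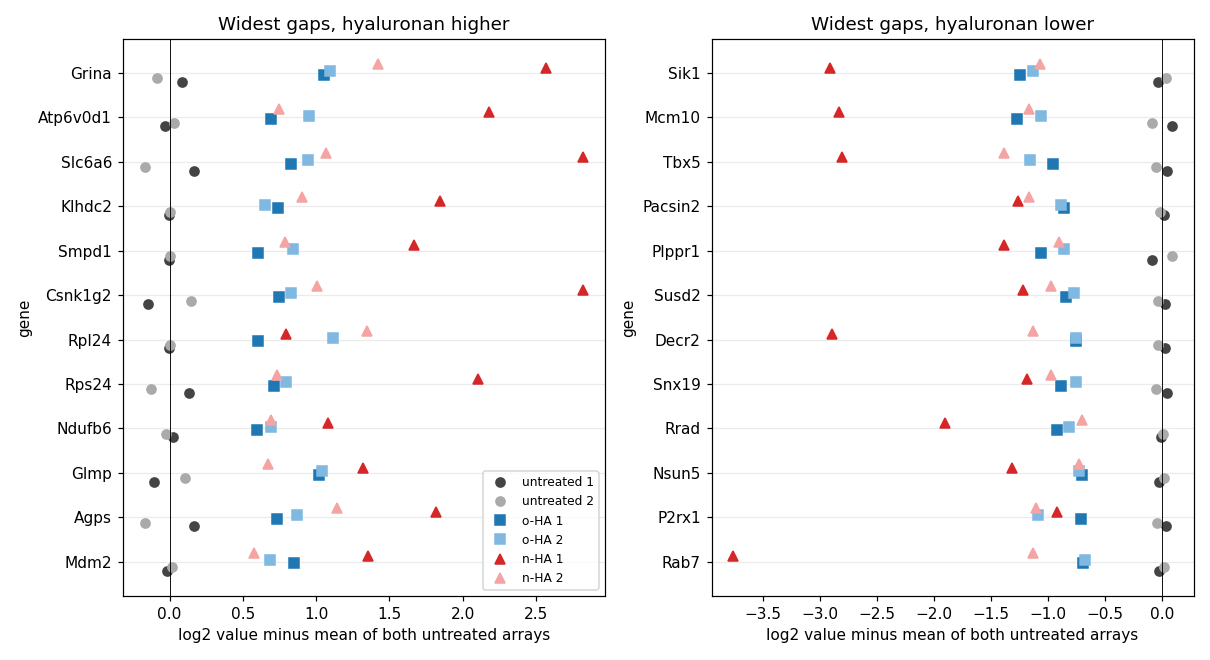
Log2 values of the 12 genes with the widest gap in each direction, on each of the 6 arrays, minus the mean of both untreated arrays. Circles are untreated, squares o-HA and triangles n-HA cells. Treated and untreated points do not overlap for any gene because genes were chosen that way, and n-HA replicate 1, the dark triangle, is far out for Slc6a6 and Rab7.

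The widest gap among the higher genes was that of Grina, a membrane protein of the TMBIM family that protects cells from death. Grina read 6.86 and 6.69 without hyaluronan, 7.83 and 7.86 under o-HA and 9.34 and 8.197 under n-HA. The gap was 0.97, and treated cells were 1.54 higher on average (SE 0.43, n = 4 and 2), a 2.9-fold difference with an adjusted p-value of 0.795 in limma. The o-HA pair was tight and the n-HA values were spread. The difference was 1.18 when n-HA replicate 1 was left out. A further family member, Tmbim4, read 6.102 and 6.01 without hyaluronan, 6.55 and 6.92 under o-HA and 8.75 and 6.93 under n-HA. Of 20 tested apoptosis regulators 7 (35%) were higher and 7 (35%) lower, against 11.9% and 13.1% of all genes. Without n-HA replicate 1 there were 8 in each direction. This even split was not seen without normalization between arrays, where 0 were higher and 8 lower, nor on the deposited intensity scale, with 0 and 7. Higher members included Tmbim6, Mtch1, Apaf1, which nucleates the apoptosome, and the death receptor adaptor Fadd. Lower members included the inhibitor of apoptosis Birc5 at 10.21 and 10.23 in untreated, 9.41 and 9.73 in o-HA and 7.92 and 9.48 in n-HA cells, and the pro-apoptotic Pawr, which lay -1.04 from untreated on average. On the normalized scale, members that promote death and members that oppose it were found in both directions.

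Lysosomal genes were among the higher ones. Of 28 tested genes of the lysosome list, 8 (28.6%) were higher and 1 (3.57%) was lower, against 11.9% and 13.1% of all genes, and the median difference was 0.13. Atp6v0d1, a subunit of the proton pump that acidifies lysosomes, read 6.92 and 6.98 without hyaluronan, 7.64 and 7.895 under o-HA and 9.13 and 7.69 under n-HA on its probe of widest gap. Smpd1, the acid sphingomyelinase, was at 7.33 and 7.33 in untreated, 7.94 and 8.18 in o-HA and 9.001 and 8.12 in n-HA cells. Glmp, a lysosomal membrane glycoprotein, was at 6.72 and 6.93 in untreated, 7.85 and 7.87 in o-HA and 8.15 and 7.5001 in n-HA cells. Glmp differed from the others in that n-HA replicate 1 lay close to the o-HA arrays. Gnptg, a subunit of the enzyme that tags lysosomal enzymes for sorting, was at 7.403 and 7.25, 8.01 and 7.92 and 8.97 and 8.01 in the same order. Smaller gaps of 0.06 to 0.12 were seen for the pump subunits Atp6v0a1, Atp6v0b and Atp6ap1, for the glycogen-degrading Gaa and for Grn, and one of 0.04 for the glucuronidase Gusb. Leaving out n-HA replicate 1, 9 of 27 tested genes were higher and 1 lower. Without normalization between arrays none of the list was higher.

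Many lysosomal genes carry the letters CACGTG near their start, the core of the element read by the transcription factor TFEB. The window from 250 bases before to 50 bases after the start was searched in RefSeq promoters of build GRCm38.p6; the motif is its own reverse complement, so 1 search covers both strands. It was in 2349 (7.15%) of 32851 windows, and in 450 (11.2%) of the 4013 tested genes with a window. Of the tested lysosome list, 9 of 26 genes with a window held it (34.6%). Those higher under hyaluronan held it in 3 of 8 cases (37.5%) and the rest in 6 of 18 (33.3%), so the shares were close. Atp6v0d1 and Smpd1 count with the rest here and in the list counts above, because their probes of highest mean overlapped. A window was found for 17 of the 24 genes of widest gap, and Atp6v0d1 alone among these 17 held the motif. The windows below are those of Gnptg, Atp6v0b and Gaa, the higher list members that hold it, and of Atp6v0d1, higher only on its probe of widest gap in this count. They are given in the direction of transcription and with the motif in capitals. They lie at chr8:105566015-105566314 (minus strand, Atp6v0d1), chr17:25240091-25240390 (minus strand, Gnptg), chr4:117887280-117887579 (minus strand, Atp6v0b) and chr11:119267713-119268012 (plus strand, Gaa).
Atp6v0d1: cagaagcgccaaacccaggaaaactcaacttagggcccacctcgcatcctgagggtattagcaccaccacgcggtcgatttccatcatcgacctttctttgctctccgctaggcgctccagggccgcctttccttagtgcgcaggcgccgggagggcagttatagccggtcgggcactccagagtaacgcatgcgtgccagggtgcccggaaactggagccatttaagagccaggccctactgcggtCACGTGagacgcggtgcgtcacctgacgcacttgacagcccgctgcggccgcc
Gnptg: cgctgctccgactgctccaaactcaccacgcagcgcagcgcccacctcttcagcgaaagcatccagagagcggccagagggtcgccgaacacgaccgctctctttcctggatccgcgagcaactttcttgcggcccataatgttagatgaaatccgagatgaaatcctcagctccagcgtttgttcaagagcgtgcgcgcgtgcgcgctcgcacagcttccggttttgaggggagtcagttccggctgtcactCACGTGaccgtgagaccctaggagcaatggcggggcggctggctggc
Atp6v0b: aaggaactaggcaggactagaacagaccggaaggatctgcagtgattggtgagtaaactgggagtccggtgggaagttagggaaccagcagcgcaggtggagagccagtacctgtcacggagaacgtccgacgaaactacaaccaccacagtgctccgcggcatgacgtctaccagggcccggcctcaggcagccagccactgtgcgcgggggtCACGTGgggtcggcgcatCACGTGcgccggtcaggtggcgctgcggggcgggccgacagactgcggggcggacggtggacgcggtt
Gaa: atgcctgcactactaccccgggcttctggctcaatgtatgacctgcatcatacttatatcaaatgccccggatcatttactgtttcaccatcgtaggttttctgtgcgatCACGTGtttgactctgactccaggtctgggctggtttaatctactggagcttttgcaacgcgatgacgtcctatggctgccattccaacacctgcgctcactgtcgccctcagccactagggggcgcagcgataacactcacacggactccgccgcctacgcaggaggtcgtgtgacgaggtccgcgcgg
The motif starts at base 248 of the window for Atp6v0d1 and at base 254 for Gnptg, at the start of the gene. Atp6v0b has 2 copies, the first at base 215, and Gaa has 1 at base 111. A match describes the letters only.

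Cytosolic ribosomal proteins had the largest share of higher genes among lists with at least 8 tested genes. Of these cytosolic ribosomal proteins 19 of 51 tested genes (37.3%) were higher and 5 (9.8%) were lower, against 11.9% and 13.1% of all genes. The list median was 0.08. Rpl24 read 6.75 and 6.76 without hyaluronan, 7.36 and 7.87 under o-HA and 7.55 and 8.1002 under n-HA. Rps24 read 10.74 and 10.48 without hyaluronan, 11.32 and 11.40 under o-HA and 12.71 and 11.35 under n-HA. For Rpl24 the highest value was n-HA replicate 2, whereas for Rps24 it was n-HA replicate 1, more than 1 log2 unit above the other treated arrays. Rps15 lay 0.72 and Rps20 1.22 above untreated. The lower members were Rpl36al, Rplp0, Rpl22, Rpl5 and Rpl30. Genes of this family have many near-identical copies, so a probe can bind RNA of more than 1 of them. Without n-HA replicate 1, 21 were higher and 6 lower, and without normalization between arrays 0 were higher and 7 lower. Of 29 translation factors 6 (20.7%) were higher, among them the initiation factor subunit Eif3f, and 4 (13.8%) lower, among them the poly(A)-binding Pabpc1, with a list median of -0.04. Of 46 mitochondrial ribosomal proteins 6 (13%) were higher and 3 (6.52%) lower, with a list median of 0.17. Without normalization between arrays 1 member of each of these lists was higher, and 6 and 3 were lower.

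Among subunits of oxidative phosphorylation, 15 of 65 tested genes (23.1%) were higher and 4 (6.15%) were lower, against 11.9% and 13.1% of all genes. The list median was 0.18. Ndufb6, a subunit of complex I, read 8.63 and 8.58 without hyaluronan, 9.201 and 9.298 under o-HA and 9.69 and 9.298 under n-HA. Its treated values lay within a narrow range on all 4 arrays. Ndufb8, also of complex I, read 7.78 and 7.595 without hyaluronan, 8.26 and 8.43 under o-HA and 10.996 and 8.42 under n-HA. Here n-HA replicate 1 lay more than 2 log2 units above the other 3 treated arrays, which had nearly equal values. The cytochrome c oxidase subunits Cox4i1, Cox8a, Cox8b and Cox6a2 were higher, and Cox6a1 and Cox6b1 of the same complex were lower. With n-HA replicate 1 left out, 17 of 64 were higher and 4 lower, and without normalization between arrays 0 members were higher and 4 lower. Proteasome and ubiquitin conjugation genes were higher in 6 (18.2%) and lower in 2 (6.06%) of 33 genes, and higher in 1 and lower in 4 without normalization between arrays. The widest gaps of this list were those of the proteasome subunit Psmd8 (gap 0.35, difference 0.85) and the conjugating enzyme Ube2e2 (gap 0.32, difference 0.85).

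**Figure D2:**
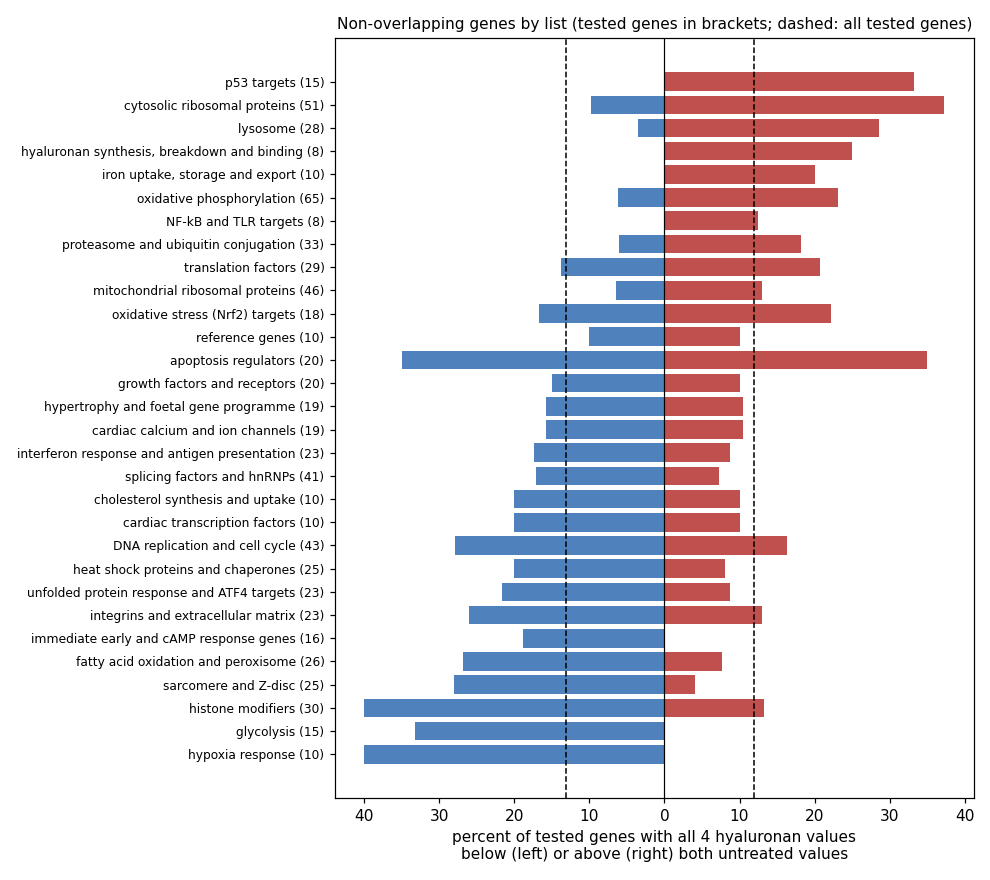
Percent of tested genes in each list with all 4 hyaluronan values above (red, right) or below (blue, left) both untreated values, 1 probe per gene. Dashed lines mark all tested genes, 11.9% above and 13.1% below. Cytosolic ribosomal proteins reach 37.3% above, and histone modifiers and the hypoxia response 40% below.

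Mdm2, the ubiquitin ligase that degrades p53 and is itself induced by it, was among the widest gaps. Mdm2 read 9.21 and 9.24 without hyaluronan, 10.07 and 9.91 under o-HA and 10.58 and 9.799 under n-HA, a mean difference of 0.87 (SE 0.27). On a second, brighter probe of Mdm2, described below, o-HA lay above untreated and n-HA below it. Mdm2 is not counted among the higher p53 targets that follow. Of 15 tested p53 targets on the list 5 (33.3%) were higher and 0 lower, against 11.9% and 13.1% of all genes. Siva1, a pro-apoptotic protein, had the widest gap of these, at 7.296 and 6.82 in untreated, 7.79 and 8.12 in o-HA and 9.57 and 8.12 in n-HA cells. The others were Rps27l (0.66), the phosphatase Ppm1d (0.40), Apaf1 (0.45) and the cell cycle inhibitor Cdkn1a (0.41). The gaps of Ppm1d, Apaf1 and Cdkn1a were 0.06, 0.06 and 0.02, so their nearest treated and untreated values almost met. Without n-HA replicate 1, 6 of the 15 were higher and 1 lower, and without normalization between arrays 0 were higher.

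The remaining genes of wide gap on the higher side had unrelated roles. Slc6a6, the taurine transporter, read 5.07 and 4.73 without hyaluronan, 5.73 and 5.85 under o-HA and 7.72 and 5.97 under n-HA. Csnk1g2, a casein kinase, was at 5.11 and 5.41 in untreated, 6.01 and 6.09 in o-HA and 8.08 and 6.27 in n-HA cells. In both, n-HA replicate 1 lay far above the other treated arrays, which were close together. Klhdc2, a substrate receptor of a ubiquitin ligase, was at 7.697 and 7.71 in untreated, 8.44 and 8.35 in o-HA and 9.55 and 8.61 in n-HA cells. Agps, a peroxisomal enzyme of ether lipid synthesis, was at 5.79 and 5.46 in untreated, 6.36 and 6.496 in o-HA and 7.45 and 6.77 in n-HA cells. Just outside the 12 was Rpusd4, with a gap of 0.54 after 0.56 for Mdm2.

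Some contractile genes were lower. Of 25 tested sarcomere and Z-disc genes 7 (28%) were lower and 1 (4%) higher, against 13.1% and 11.9% of all genes. Tnnc1, cardiac troponin C, which binds calcium on the thin filament, read 11.26 and 11.40 without hyaluronan, 10.09 and 10.13 under o-HA and 10.74 and 10.41 under n-HA. Treated cells were lower by 0.991 (SE 0.25, n = 4 and 2, adjusted p-value 0.795 in limma). The o-HA arrays were lowest, and n-HA replicate 1 was the treated array closest to untreated, unlike in most other genes. Without it Tnnc1 was 1.11 lower. Myh6, the atrial myosin heavy chain, was at 6.01 and 6.15 in untreated, 5.23 and 5.55 in o-HA and 5.63 and 5.77 in n-HA cells, also lowest with o-HA. Myl7, the atrial regulatory light chain, was at 5.57 and 5.34 in untreated, 4.59 and 5.07 in o-HA and 4.53 and 4.64 in n-HA cells. It was detected on 3 of the 6 arrays. Myl7 and Myh6 had gaps of 0.26 and 0.23, less than 2 bead standard errors. Ldb3, Mybpc3, Pdlim3 and Tpm2 were the other lower members, and the ventricular light chain Myl2 was higher by 0.27 with a gap of 0.04. The 7 lower and 1 higher of the normalized scale became 6 lower and 0 higher without normalization between arrays, and 7 lower and 2 higher without n-HA replicate 1. Over the whole list 13 members lay below untreated on average and 12 above, with a median difference of -0.06, so the members that did not separate were spread around 0.

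Tbx5, a transcription factor of atrial and conduction cell identity, read 7.74 and 7.64 without hyaluronan, 6.73 and 6.54 under o-HA and 4.89 and 6.31 under n-HA. It was 1.58 lower on average (SE 0.50), a 2.98-fold difference that the limma fit did not call. All 4 treated values were at least 0.91 below both untreated values, and n-HA replicate 1 was lowest. Without it the difference was -1.16. Nkx2-5, which partners it, was at 5.83 and 5.83 in untreated, 5.54 and 5.27 in o-HA and 5.07 and 5.71 in n-HA cells, with a gap of 0.11. Tbx3, known as a repressor in the conduction system, was higher by 0.24 with the same gap. These were the separated members among 10 tested cardiac transcription factors, 1 (10%) higher and 2 (20%) lower. The shares of all genes were 11.9% and 13.1%. Of 19 calcium and ion channel genes, 2 (10.5%) were higher, the gap junction protein Gja1 and the calcium pump Atp2a2, and 3 (15.8%) lower. Both shares were near those of all genes. Atp2a2 was higher by 0.43 with a gap of 0.08.

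**Figure D3:**
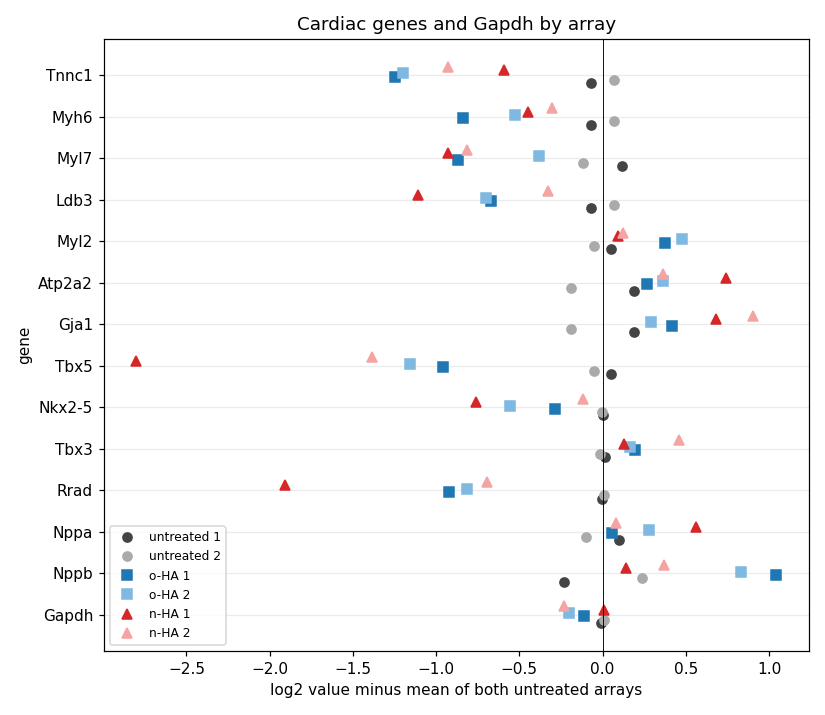
Log2 values of cardiac genes and Gapdh on each of the 6 arrays, minus the mean of both untreated arrays, with circles for untreated, squares for o-HA and triangles for n-HA cells. Tnnc1, Myh6, Tbx5 and Rrad lie below untreated on all 4 treated arrays, whereas Nppa, Nppb and Gapdh overlap it.

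Sik1 had the widest gap in either direction. This salt-inducible kinase is switched on by cyclic AMP signalling and feeds back on it. Sik1 read 8.28 and 8.35 without hyaluronan, 7.07 and 7.19 under o-HA and 5.404 and 7.25 under n-HA. The gap was 1.03, or 9.26 bead standard errors, and treated cells were 1.59 lower (SE 0.52), a 3.01-fold difference with an adjusted p-value of 0.795 in limma. Both o-HA arrays and n-HA replicate 2 were nearly equal, and the difference without n-HA replicate 1 was -1.14. Rrad, a small GTPase that restrains the L-type calcium channel, was at 9.14 and 9.15 in untreated, 8.22 and 8.33 in o-HA and 7.24 and 8.45 in n-HA cells. Of 16 tested immediate early and cAMP response genes 3 (18.8%) were lower, Sik1, Rrad and Jund, and 0 were higher. The shares of all genes were 13.1% and 11.9%. Jund was detected on 2 arrays only, both untreated, and was at least 1.09-fold lower. With n-HA replicate 1 left out, 4 of 15 were lower and 1 higher. The list median was 0.00, so the rest of the list did not follow Sik1.

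Genes of DNA replication and the cell cycle separated in both directions. Of 43 tested genes 12 (27.9%) were lower and 7 (16.3%) higher, against 13.1% and 11.9% of all genes. Mcm10, a factor needed to start DNA replication, read 7.68 and 7.51 without hyaluronan, 6.32 and 6.54 under o-HA and 4.76 and 6.42 under n-HA. It was 1.58 lower on average (SE 0.50), and 1.16 lower without n-HA replicate 1. E2f6, a repressor of E2F targets, was at 8.63 and 8.599 in untreated, 8.004 and 7.71 in o-HA and 4.702 and 7.06 in n-HA cells. In E2f6 n-HA replicate 1 was lower than every other array by more than 2 log2 units, and was not above background. Cdc25b, a phosphatase that starts mitosis, was 1.01 lower, and Cdk2, Ccne1, Cdc45, Prim2, Pold2 and Lig1 were also lower. The higher members included the replication proteins Rpa1, Rpa3 and Rfc1, the licensing factor Cdt1 and E2f1. Leaving out n-HA replicate 1, 12 of 42 were lower and 9 higher, and without normalization between arrays 8 were lower and 1 higher.

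Separated genes of sugar use were all lower, and those of fat use lay in both directions. Of 15 tested glycolysis genes 5 (33.3%) were lower and 0 were higher, against 13.1% and 11.9% of all genes. The list median was -0.16. Pfkp, a phosphofructokinase, read 9.21 and 9.03 without hyaluronan, 8.05 and 8.596 under o-HA and 5.64 and 7.59 under n-HA. The muscle enolase Eno3 was at 9.58 and 9.55 in untreated, 8.98 and 9.19 in o-HA and 8.25 and 8.84 in n-HA cells. Ldha, the lactate dehydrogenase subunit, was at 13.15 and 13.15 in untreated, 12.68 and 12.97 in o-HA and 11.58 and 12.71 in n-HA cells. For Pfkp and Eno3 both o-HA values lay between the untreated and the n-HA values. Aldoa and Pfkm were the other lower members, with gaps of 0.14 and 0.12. Without n-HA replicate 1, 7 of 14 tested genes were lower, and without normalization between arrays 2 of 15. The hypoxia response list, which shares Ldha and Aldoa, was lower in 4 of 10 genes (40%) and higher in 0. It also held the oxygen sensor Egln1 at 6.45 and 6.22 in untreated, 5.67 and 5.51 in o-HA and 4.74 and 5.24 in n-HA cells. Fatty acid oxidation and peroxisome genes were lower in 7 of 26 (26.9%) and higher in 2, Pex6 and Acaa1a, and without n-HA replicate 1 lower in 7 and higher in 3 of 25. Without normalization between arrays 5 were lower and 0 higher. Decr2, a peroxisomal reductase of unsaturated fatty acids, read 7.34 and 7.28 without hyaluronan, 6.56 and 6.56 under o-HA and 4.42 and 6.18 under n-HA. The electron carrier Etfb was 0.83 lower, and the peroxisomal membrane protein Pxmp2 was 1.16 lower.

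Separated chromatin genes were more often lower than higher. Of 30 tested histone modifiers 12 (40%) were lower and 4 (13.3%) were higher, and the list median was -0.22. Carm1, an arginine methyltransferase, read 6.62 and 6.899 without hyaluronan, 6.18 and 5.97 under o-HA and 5.19 and 5.35 under n-HA. Rbbp7, a histone-binding subunit of deacetylase complexes, was at 10.53 and 10.51 in untreated, 10.11 and 10.09 in o-HA and 6.44 and 9.17 in n-HA cells. For Rbbp7 the n-HA arrays were far lower than the o-HA arrays, and for Carm1 the same order held with a smaller spread. Hdac1, Hdac5, Hdac7, Ezh2, Prmt5, Setdb1 and Mta1 were also lower, and Sap30, the higher member of widest gap, had a gap of 0.43 and a mean difference of 0.96. Without n-HA replicate 1, 13 of 29 were lower and 4 higher, and without normalization between arrays 10 were lower and 0 higher. Splicing factors were lower in 7 (17.1%) and higher in 3 (7.32%) of 41 genes, against 13.1% and 11.9% of all genes. Chaperones were lower in 5 (20%) and higher in 2 (8%) of 25. Unfolded protein response and ATF4 targets were lower in 5 (21.7%) and higher in 2 (8.7%) of 23. Without n-HA replicate 1, splicing factors were lower in 7 and higher in 4 of 39, and chaperones lower in 8 and higher in 2 of 23. Unfolded protein response and ATF4 targets were then lower in 6 and higher in 4 of 23. Without normalization between arrays 0 members of each of these lists were higher, and 9, 5 and 5 were lower. The ATF4 target Trib3 was 1.17 and the constitutive chaperone Hspa8 1.399 lower. For Hspa8 this rested largely on n-HA replicate 1, at 8.41 against 11.47 for n-HA replicate 2 and 12.20 and 12.10 for o-HA. Integrin and matrix genes were lower in 6 (26.1%) and higher in 3 (13%) of 23. Without n-HA replicate 1, 8 of 22 were lower and 2 higher, and without normalization between arrays 6 were lower and 1 higher. The integrin chain Itga2b was lower by 0.82 and the membrane collagenase Mmp14 higher by 0.76.

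The other lower genes of wide gap were of varied function, and several were dim. Pacsin2, a membrane-bending protein, read 5.599 and 5.57 without hyaluronan, 4.72 and 4.696 under o-HA and 4.32 and 4.42 under n-HA. It was detected on the 2 untreated arrays and on no treated array, so the difference is given as at least 1.73-fold lower. The phospholipid phosphatase-related Plppr1 was at 6.02 and 6.19 in untreated, 5.04 and 5.25 in o-HA and 4.72 and 5.201 in n-HA cells. The ATP-gated channel P2rx1 was at 5.604 and 5.52 in untreated, 4.86 and 4.48 in o-HA and 4.64 and 4.46 in n-HA cells. Susd2 and the sorting nexin Snx19 were lower by 0.95 and 0.95. In Pacsin2, Plppr1, Susd2, Snx19 and P2rx1 the n-HA arrays lay near the o-HA arrays, and all treated values were near the lowest signal detected, 4.71 to 4.86. Nsun5, an RNA methyltransferase, was at 7.28 and 7.33 in untreated, 6.5998 and 6.57 in o-HA and 5.99 and 6.57 in n-HA cells. Rab7, the GTPase of late endosomes, was at 9.18 and 9.22 in untreated, 8.51 and 8.53 in o-HA and 5.44 and 8.07 in n-HA cells. For Rab7 the mean difference of -1.56 (SE 0.83) was set by n-HA replicate 1 and was -0.82 without it. Next after Rab7, with a gap of 0.65, came Itga2b with 0.63.

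The machinery of hyaluronan itself was scarcely measurable. The synthases Has1, Has2 and Has3 were detected on 0, 1 and 1 of the 6 arrays, and the receptor Hmmr and the growth factor Tgfb2 on none, so they were not tested. Of 6 probes for the receptor Cd44, 1 was tested, and it overlapped at 5.02 and 4.699 in untreated, 4.798 and 4.69 in o-HA and 5.003 and 4.25 in n-HA cells. Of 8 tested genes of hyaluronan synthesis, breakdown and binding, 2 (25%) were higher, the hyaluronidase Hyal2 and the glucuronidase Gusb, and 0 lower. The shares of all genes were 11.9% and 13.1%. Hyal2 was at 5.62 and 5.51 in untreated, 5.97 and 5.72 in o-HA and 7.36 and 6.16 in n-HA cells, with a gap of 0.10. Gusb was higher by 0.12 with a gap of 0.04, and lay below untreated on average without normalization between arrays. The natriuretic peptides Nppa and Nppb, markers of cardiac stress, overlapped. Nppb was at 6.198 and 6.67 in untreated, 7.48 and 7.26 in o-HA and 6.57 and 6.799 in n-HA cells, so o-HA lay above untreated and n-HA overlapped it. Without n-HA replicate 1 Nppb was higher, by 0.75 with a gap of 0.13. Gapdh overlapped on both tested probes, 1 of which read 12.87 and 12.89 without hyaluronan, 12.77 and 12.68 under o-HA and 12.89 and 12.65 under n-HA. Without n-HA replicate 1 that probe was lower, by 0.18 with a gap of 0.11. Actb was lower by 1.04 with a gap of 0.04 on a probe where n-HA replicate 1 read 8.57. Untreated cells read 11.62 and 11.44 there, and the other tested probes of Actb overlapped. Of 8 tested NF-kB and Toll-like receptor targets 1 (12.5%), the adaptor Myd88, was higher, with a gap of 0.05, and 0 were lower.

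Genes with several probes gave a second reading. For 762 genes at least 2 probes were tested. For each higher probe of such a gene, the other probes of the same gene were higher in 22 of 206 pairs (10.7%) and lower in 21 (10.2%), near the background of 10.8% and 13.2%. For each lower probe, the others were lower in 104 of 400 pairs (26%) and higher in 21 (5.25%). The median difference of the other probe was -0.01 in the first case and -0.17 in the second. The share for higher probes was thus near that of all probes, and the share for lower probes was above it. The 11 genes with at least 2 higher probes were Abcb9, Anapc5, Ctps, Ddrgk1, Exd2, Fadd, Get4, Gnptg, Gstm2, Midn and Uxt, and 43 genes had at least 2 lower probes. A further probe of Gstm2 was lower, by 0.85 with a gap of 0.22. Further tested probes of Anapc5, Exd2, Fadd and Get4 overlapped, as did further probes of some of the 43 genes.

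**Figure D4:**
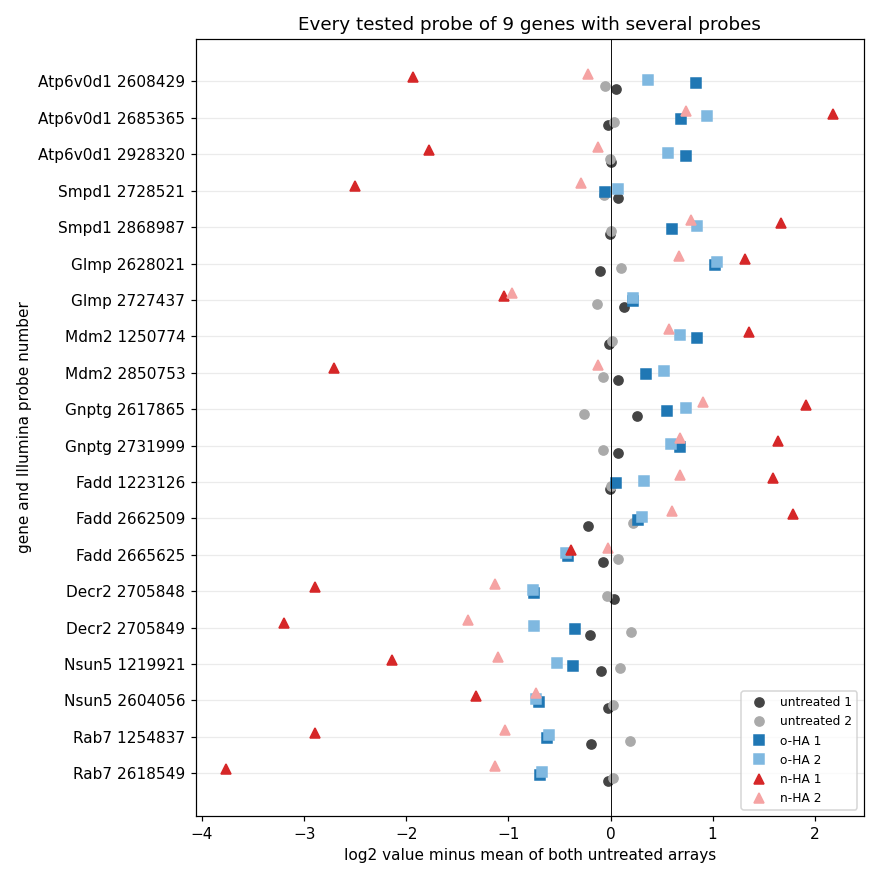
Log2 values of every tested probe of 9 genes, minus the mean of both untreated arrays, with circles for untreated, squares for o-HA and triangles for n-HA cells. n-HA replicate 1 lies above untreated on 1 probe of Atp6v0d1, Smpd1, Glmp and Mdm2 and below it on the others, while both probes of Gnptg, Decr2, Nsun5 and Rab7 run together. For Fadd, n-HA replicate 1 lies above untreated on the higher probes and below it on the other.

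Probes of a gene disagreed in direction about equally often on every treated array, and by the widest margins on n-HA replicate 1. Over the 762 genes, taking the 2 probes of highest mean of each, both probes lay on opposite sides of untreated in 41.5% to 43.6% of genes on each of the 4 treated arrays. For Atp6v0d1 n-HA replicate 1 read 9.13 on the probe with the wide gap and 6.67 on another probe, where untreated cells read 8.45 and 8.44 and o-HA cells 9.19 and 9.003. The o-HA arrays were above untreated on all 3 tested probes of Atp6v0d1. For Mdm2 a second probe read 10.61 and 10.47 in untreated, 10.89 and 11.06 in o-HA and 7.83 and 10.41 in n-HA cells. There, too, o-HA lay above untreated, and n-HA lay below it. For Smpd1 the second probe overlapped for o-HA, at 8.44 and 8.57 against 8.56 and 8.42 in untreated cells. Over the same pairs of probes of the 762 genes, n-HA replicate 1 lay more than 1 log2 unit from untreated in opposite directions on 49 genes, and the other 3 treated arrays on 0. That count goes with a wider spread of its values, with an SD over genes of 1.35 against 0.32 to 0.51 on the others. The correlation between the probes' differences from untreated, a description across genes that share arrays and untreated values, was 0.17 to 0.28 on all 4 treated arrays.

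Pooling joined arms that were not alike in size. A direct contrast of o-HA with n-HA called 0 of 6194 probes (0%) in limma, with a lowest adjusted p-value of 0.275 and 876 probes under 0.05 without adjustment. The doses differed, so no comparison of the chain lengths is drawn from it. Side by side, Grina was 1.07 above untreated with o-HA and 1.996 with n-HA, and Sik1 was 1.19 and 1.99 below. These n-HA means lean on n-HA replicate 1, at 9.34 for Grina and 5.404 for Sik1. n-HA replicate 2 read 8.197 for Grina, against 7.83 and 7.86 under o-HA. For Sik1 n-HA replicate 2 read 7.25, against 7.07 and 7.19 under o-HA. Tnnc1 was 1.22 below with o-HA and 0.76 below with n-HA, Glmp was 1.03 and 0.997 above, and Rpl24 0.86 and 1.07 above. All 24 genes of widest gap passed the 3-group model without n-HA replicate 1, with adjusted p-values of 0.00258 to 0.0232 in limma. They had been picked on the same arrays, so this is no independent support.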

How the data were processed

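Total RNA of HL-1 cells was hybridized to 6 Illumina MouseRef-8 arrays in 3 groups of 2. The authors deposited bead intensity values per probe on a linear scale, not normalized, from BeadStudio 3.3 (per the submitters' processing notes). In the same deposited table each probe has, for every array, a p-value of detection against control beads. The authors' normalized intensity values are in another table, brought to a common distribution by cubic spline with background subtracted. Its scale is linear, and which background was subtracted is not stated.

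Of 25697 probes 23978 carried 1 gene symbol in the platform annotation and 1719 none. Intensities were processed with neqc of limma 3.58.1 (R 4.3.3), with an offset of 16 the level of negative controls being derived from detection. Probes detected (p under 0.05) on 2 or more of 6 arrays were tested by lmFit and eBayes (two-sided, 4 residual and 3.54 prior degrees of freedom), with Benjamini-Hochberg adjustment over all 6194 probes and a threshold of 0.05. All adjusted p-values come from limma. The fit was tested on simulated data with less spread than these arrays and with large differences. That test checks the code and does not measure the power here. The number of arrays limits the precision. A gene detected on no array of the dimmer group is given as a lower bound.

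Named genes were the 12 probes with the widest gap in each direction among those detected on every array of the brighter group, up to 4 separated members of each of 35 lists, and a panel. The members and lists were chosen with earlier results of these data known. List counts take 1 probe per gene, that of highest mean, and 731 of 1551 list entries were tested. Alternatives changed the model, the offset, the background correction, the normalization, the filter and the arrays used.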

Additional observations from a re-analysis of the deposited data

Results flagged for a closer look

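The 4 treated values of each named gene were checked for an array far from the other 3, with Dixon's limit for the gap to the nearest value over the whole range. Chance flags about 1 in 20 groups. Of 125 probes named, 24 passed the limit, and n-HA replicate 1 was the outlying array in all 24. Among all 6194 tested probes 808 passed it, and n-HA replicate 1 was the outlying array in 677 of them. Whether RNA, labelling or hybridization of that array differed was not tested.

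On the higher side n-HA replicate 1 read 7.72 for Slc6a6, 8.08 for Csnk1g2, 12.71 for Rps24, 9.401 for Bag1, 9.77 for Gusb, 9.603 for Mt1 and 8.97 for Gnptg. It also read 7.86 for Atp6v0a1, 10.004 for Mrpl33, 9.72 for Mrpl2, 10.996 for Ndufb8, 9.77 for Cox4i1, 9.28 for Psmc4, 7.91 for Ptbp1 and 10.11 for Etf1. On the lower side it read 5.404 for Sik1, 4.76 for Mcm10, 5.99 for Nsun5, 5.44 for Rab7, 6.72 for Dnajb6 and 4.43 for Mta1. It also read 4.67 for Irf3, 7.82 for Eif4a3 and 4.82 for Derl3. The other 3 treated arrays of all 24 probes lay on the same side of untreated, as the choice of these genes required.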

How the results depend on the processing

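The pooled limma fit called 0 probes in every alternative with all arrays but array weights, which called 69 (lowest adjusted p-value 0.00214). These weights were 0.101 for n-HA replicate 1, 0.522 for n-HA replicate 2 and 1.94 to 2.15 for the others. The 3-group model with all arrays called 0, and 178 with array weights, a setting chosen after seeing the data. Leaving out each array in turn, also chosen after seeing the data for the 3-group model, gave 0 to 2560 calls: 486 without n-HA replicate 1, 2560 without n-HA replicate 2 and 0 without any other array. Dropping either n-HA array removes the difference between them from the error, so those calls rest on the untreated and o-HA pairs. With the replicate block 0 probes were called, with a lowest adjusted p-value of 0.843. The labels do not say whether the replicate numbers pair the samples. Deviations of same-numbered arrays correlated at -0.114, 0.153 and -0.0449, which does not settle it. The fit without the block also called 0 probes, so there was no call to lose.

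Of 6194 tested probes 671 were higher and 819 lower. Of the same probes 69 and 893 were so without normalization between arrays, and 78 and 833 on the deposited intensities. With the fold and intensity limits of the methods the counts were 373 and 345. Of 3017 probes detected on all 6 arrays 557 were higher and 442 lower, so that 55.8% of the separated probes were higher. With no filter 2037 and 1963 of 25697 were, or 50.9%, against 45.0% in the main setting. Among the 671 higher probes 83 were detected on no untreated array, and among the 819 lower probes 80 on no treated array. Leaving out each array gave 804 to 1187 higher and 978 to 1280 lower probes, of 5757 to 5959 tested. Without normalization between arrays Gusb and Apaf1 turned to -0.30 and -0.056. With array weights 34 of the 125 named probes passed the threshold, and no named probe passed it under another setting of the pooled fit. Of 31 list medians 27 moved by more than 1 SD over the treated arrays without normalization between arrays, and 2 to 8 under each other setting. The n-HA arrays detected the fewest probes, which limits what can be measured on them.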

Other observations

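Some gene groups outside the comparisons above held single genes that separated treated from untreated cells. Axl, a receptor tyrosine kinase, read 7.01 and 7.204 without hyaluronan, 7.84 and 7.604 under o-HA and 8.63 and 7.93 under n-HA, with a gap of 0.40. Ephx1, an epoxide hydrolase of the Nrf2 programme, read 7.26 and 7.11 without hyaluronan, 7.705 and 8.05 under o-HA and 9.17 and 8.04 under n-HA. Nqo1, a quinone reductase and a classical target of Nrf2, moved the other way and read 6.33 and 6.44 without hyaluronan, 5.702 and 5.84 under o-HA and 4.34 and 5.2996 under n-HA. Of 18 tested Nrf2 targets 4 (22.2%) were higher and 3 (16.7%) lower, against 11.9% and 13.1% of all genes. The ferritin heavy chain Fth1 was higher by 1.03 with a gap of 0.20. Of 10 iron genes 2 (20%) were higher and 0 lower.

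Interferon and antigen presentation genes were higher in 2 (8.7%) and lower in 4 (17.4%) of 23, against 11.9% and 13.1% of all genes. Irf1, a transcription factor of the interferon response, read 7.03 and 7.11 without hyaluronan, 6.498 and 6.71 under o-HA and 5.21 and 6.25 under n-HA, and Usp18, an interferon-induced protease, was higher by 0.68 with a gap of 0.06. Growth factors and receptors were higher in 2 (10%) and lower in 3 (15%) of 20 genes, near the shares of all genes. The coreceptor Tgfbr3 was lower by 0.89 and Tgfb1 by 0.82. Cholesterol genes were higher in 1 (10%) and lower in 2 (20%) of 10. The synthase Hmgcs1 was higher by 0.86, whereas Sqle and Mvd of the same pathway were lower by 0.80 and 0.71. The calcineurin target Rcan1 was higher by 0.69 with a gap of 0.30.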
